A study of Homo sapiens with 28 samples.

Results

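The chromatin positions of the carboxy-terminal domain (CTD) of ASH1L were compared between U2OS cells without UV and the same cells 3 h after a pulse of UV-C of 20 J/m2, from 6 peak lists of 10 in the series. U2OS is an osteosarcoma cell line. All 6 cultures were ASH1L-/- cells, a knockout made with CRISPR/Cas9 and grown from individual colonies, so the results are those of a clonal line. They had been transfected with a pDEST vector that expresses the Flag-tagged CTD from the CMV promoter, with a nuclear localization signal and HA tags, so a viral promoter and not that of ASH1L drove the fragment. CTD-bound chromatin was recovered with anti-Flag antibodies, in 3 replicates without UV and 3 at 3 h. The control was the same antibody on ASH1L-/- cells transfected with empty vector. These control libraries were pooled at 3 h and used one by one without UV, so UV and the handling of the control cannot be told apart in any difference reported here. The members were the peaks outside the ASH1L gene, between 499941 and 499961 in each list and 2999707 in all 6, out of 500000 deposited per list.

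ASH1L is a histone methyltransferase with a SET domain, and its CTD also holds the motif that binds MRG15, a PHD finger and a BAH domain, modules through which proteins contact modified histones. In global-genome nucleotide excision repair, the DDB1-DDB2 complex and XPC recognise UV photoproducts such as cyclobutane pyrimidine dimers anywhere in the genome, TFIIH opens the DNA and verifies the lesion, and nucleases then cut out the damaged strand. A ChIP-seq peak is a stretch of the genome where more fragments were recovered with the antibody than in the control, and its fold enrichment is the ratio of ChIP to control. The question was whether the places at which CTD peaks were called differed after UV. Each list was deposited with 500000 peaks, so a general gain or loss of binding could not appear as more or fewer peaks. The distribution of peaks over the genome could differ, and so could their width, fold enrichment, p-values and recurrence.

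The labels were checked on ASH1L itself, because the vector carries part of its coding sequence. Between 39 and 59 peaks per list lay in this gene on chromosome 1, and the highest fold enrichment there was 26.7, 5.87 and 41.2 in no UV replicates 1 to 3, against 18.9, 18.1 and 18.8 at 3 h. Elsewhere no peak of any list exceeded a fold enrichment of 3.67. All 6 lists thus had peaks in ASH1L with a fold enrichment above those elsewhere, lowest in replicate 2 without UV. The check rests on this height and not on the number of peaks. Chromosome 1 outside ASH1L held between 168.2 and 182.6 peaks per Mb, so that number does not single out ASH1L, a long gene. DNA of the construct and binding of the CTD to this gene cannot be told apart there, and these peaks were left out of everything that follows. Peaks elsewhere were weak, with a median fold enrichment between 1.72 and 1.82, and a −log10 p-value of at least 2 was reached by only 5.86% to 8.41% of each list. That value is the peak-calling cutoff stated in the methods, so most peaks counted here were weaker than it, and the densities below are those of mostly weak peaks. Why the deposited lists go below the cutoff is not given in the sources used here. Peak lists carry no expression, so the cell line could not be checked on marker genes. They carry no read depth either, so the precision of each value rests on the spread between replicates. The labels speak of biological replicates, and their spread is the only error that the tests below measure.

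To show single sites with peaks in only a single condition, overlapping peaks of all 6 lists were merged. Sites with a peak in every list at 3 h and in none without UV numbered 10337, and 8899 sites had the opposite pattern. These are counts without a test, and they stand beside 29003 sites with a peak in all 6 lists. Sites found in a single list numbered 373491 without UV and 336128 at 3 h. Sites with a peak in 1 list without UV and 2 at 3 h numbered 80423, and 75382 had the reverse mix. Mixed patterns can arise from more choices of lists, so their counts are not directly comparable. Nothing is read from the one-sided counts about UV. The sites of each one-sided kind were ranked by the fold enrichment of their weakest peak, and the second in each direction is printed with its hg38 plus strand sequence (300 bases) as an example. The capitals mark the bases shared by the peaks of all 3 lists.

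3 h only, chr22:43191309-43191608: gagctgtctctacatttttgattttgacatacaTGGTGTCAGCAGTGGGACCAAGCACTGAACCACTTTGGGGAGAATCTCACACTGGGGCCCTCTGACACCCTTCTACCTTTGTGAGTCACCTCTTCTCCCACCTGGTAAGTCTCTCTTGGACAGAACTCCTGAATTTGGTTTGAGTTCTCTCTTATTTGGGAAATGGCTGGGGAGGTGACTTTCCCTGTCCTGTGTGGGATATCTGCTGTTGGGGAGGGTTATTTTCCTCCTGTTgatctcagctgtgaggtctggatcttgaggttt

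No UV only, chr10:129109981-129110280: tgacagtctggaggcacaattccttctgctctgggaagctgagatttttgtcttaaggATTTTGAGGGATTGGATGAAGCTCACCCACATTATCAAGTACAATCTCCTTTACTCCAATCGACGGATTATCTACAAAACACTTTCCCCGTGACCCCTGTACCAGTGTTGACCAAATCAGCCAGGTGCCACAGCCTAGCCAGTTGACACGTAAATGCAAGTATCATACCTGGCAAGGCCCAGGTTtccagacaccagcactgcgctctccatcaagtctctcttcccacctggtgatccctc

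The site on chromosome 22 lay outside protein-coding genes and 4325 bp from the start of TTLL12. Its fold enrichment at 3 h was 2.19, 2.16 and 2.21 in replicates 1, 2 and 3. The site on chromosome 10 lay outside protein-coding genes too, 357059 bp from the nearest start, that of the DNA repair gene MGMT, with fold enrichments without UV of 2.09, 2.09 and 2.26. Neither centre lay in an annotated exon. The stretches shared by 3 lists were 234 bp wide on chromosome 22 and 185 bp on chromosome 10. These examples say nothing of how the one-sided sites compare in general.

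The 6 lists differed strongly in the base composition of the sequence under their peaks. Each list was divided over 1-kb tiles of the genome by their GC content. In tiles with under 35% GC the density was 49.6, 89.1 and 117.8 peaks per Mb in no UV replicates 1 to 3, against 93.7, 76.6 and 50.6 at 3 h. In tiles with over 55% GC it was 342.0, 260.6 and 220.7 without UV and 240.6, 218.5 and 364.0 at 3 h. Replicate 1 without UV and replicate 3 at 3 h were steep in GC, replicate 3 without UV was the flattest, and the other 3 lay between them. In all 6 GC classes the conditions overlapped (two-sided exact permutation test, the smallest p was 0.4 and every adjusted p was 1). An exact test of 3 lists against 3 cannot give a p below 0.1, so no single density could pass 0.05 here.

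**Figure D1:**
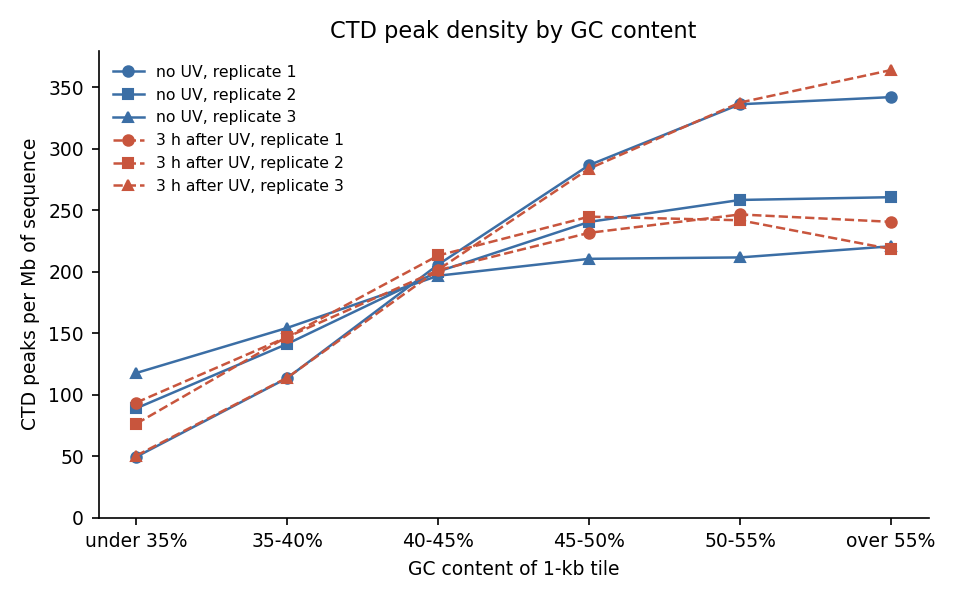
CTD peaks per Mb of sequence (y axis) in 6 classes of 1-kb tiles by GC content (x axis), 1 line per list, blue and solid without UV, red and dashed at 3 h. The lines of no UV replicate 1 and 3 h replicate 3 run together up to the class over 55%, where they reach 342.0 and 364.0, and in no class do all lists of a condition lie on one side of the other.

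Over 1-Mb bins, the log2 density increased by 0.10, 0.069 and 0.034 per percentage point of GC in no UV replicates 1 to 3, against 0.065, 0.065 and 0.11 at 3 h (2762 bins with at least 60 peaks over the 6 lists). These slopes overlapped (exact permutation p = 0.7). Because the spread between replicates followed GC, each count was also divided by the number of peaks that the list's own rate at each GC percentage predicts for the same sequence. This ratio of observed to GC-expected peaks is given below beside the density. The share of GC and of CTD binding in the differences between lists was not tested.

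Chromosomes differed strongly from each other, and on each of them the conditions overlapped. The density ranged from 45.7 peaks per Mb on chromosome X to 228.8 on chromosome 22 (means of the 3 lists at 3 h), and on none of the 23 chromosomes were the 3 lists of one condition all above those of the other. The smallest exact permutation p was 0.2, and all adjusted p were 1. Log2 ratios of 3 h over no UV ranged from −0.038 to 0.080.

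By log2 ratio, the 3 chromosomes with the largest positive differences were 19, 16 and 13. Chromosome 19, the most gene-dense, had 232.9, 208.2 and 181.1 peaks per Mb without UV and 206.6, 205.7 and 245.5 at 3 h. Chromosome 16 had 167.7, 158.8 and 152.6 without UV and 151.6, 166.6 and 187.3 at 3 h. In both, replicate 3 at 3 h was the highest list at 3 h. Chromosome 13 had 82.3, 86.9 and 90.0 without UV, against 89.2, 83.4 and 96.6 at 3 h. The largest negative log2 ratios were those of chromosomes 4, 8 and 5. Chromosome 4, which is poor in GC, had 126.3, 143.9 and 166.7 without UV, against 148.4, 146.0 and 131.1 at 3 h. The sign of the difference turned with the choice of peaks at chromosomes 4, 8 and 5, and with a single list left out at chromosomes 19, 16, 13, 4 and 8, as given at the end.

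Relative to GC content, chromosome X held the fewest CTD peaks. Its observed over expected ratio was 0.27, 0.27 and 0.32 without UV and 0.26, 0.29 and 0.31 at 3 h. Chromosome 13 followed with 0.59, 0.57 and 0.56 without UV and 0.58, 0.55 and 0.69 at 3 h. All 6 lists thus had under 0.7 of the expected peaks on these 2 chromosomes, and the conditions overlapped on both. The ratio was highest on chromosome 2, at 1.3, 1.29 and 1.28 without UV and 1.32, 1.24 and 1.27 at 3 h, and on chromosome 8, between 1.17 and 1.29. No chromosome separated the conditions on this scale either (smallest exact permutation p = 0.2, smallest adjusted p = 1).

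**Figure D2:**
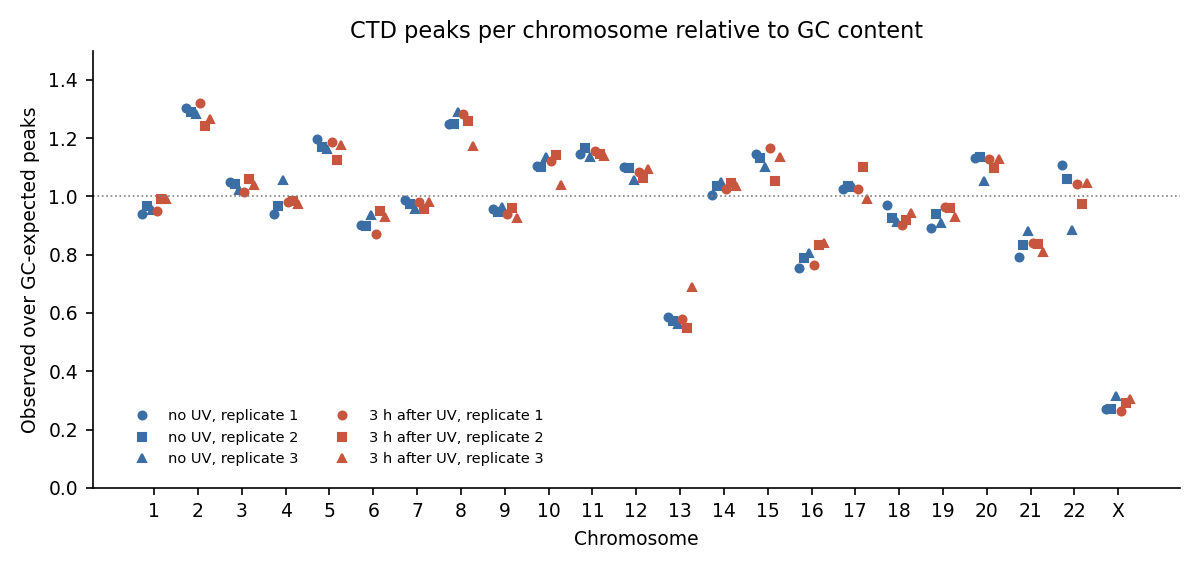
Observed over GC-expected CTD peaks (y axis) on each of 23 chromosomes (x axis), 1 point per list, blue without UV and red at 3 h, with the marker giving the replicate. The dotted line is a ratio of 1. Chromosome X sits between 0.26 and 0.32 and chromosome 13 between 0.55 and 0.69, with blue and red points mixed on every chromosome.

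Within chromosomes X and 13 large segments held few peaks, and they did so in both conditions. A bin was called peak-poor when it held fewer than 30 peaks per Mb in each of the 6 lists, a limit chosen after the values were seen. Of 2921 bins with at least 0.5 Mb of sequence, 204 (6.98%) were peak-poor, of which 82 were among the 156 bins of chromosome X (52.6%) and 30 among the 98 of chromosome 13 (30.6%). On chromosome X, a run of 27 peak-poor bins between 10000001 and 37000000 had 5.63 to 12.2 peaks per Mb over its 6 lists and covers 112 protein-coding genes, among them DMD, the dystrophin gene. A further run of 29 bins between 121000001 and 150000000, with HPRT1 and FMR1, had 5.15 to 13.8. On chromosome 13, a run of 13 bins between 81000001 and 94000000, with the glypican genes GPC5 and GPC6, had 2.39 to 7.49, while the bin just before it had a mean of 108.3. The next run on chromosome 13, 15 bins between 95000001 and 110000000, had 6.4 to 17.8 and contains ERCC5, which codes for the repair nuclease XPG, and LIG4, a DNA ligase gene. ERCC5 itself had no peak in 5 lists and 1 peak in replicate 3 at 3 h.

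Further runs of at least 5 such bins lay on chromosomes 7, 18, 21 and X, and on chromosome 19 a run of 7 bins between 20000001 and 27000000 covers 35 protein-coding genes, most of them of the zinc finger family. The runs on chromosomes 7 and 21, and that of chromosome X between 58000001 and 63000000, cover 0 protein-coding genes, and that on chromosome 18 covers 1. Few peaks can be called where the authors' mapping-quality and blacklist filters removed reads, which was not tested run by run. In every one of the 11 runs the 6 lists had 17.8 peaks per Mb or fewer. The lists of H3K36me2 in wild-type U2OS cells, a histone mark measured with another antibody and against inputs, were low in the same places. Between 163 and 167 of the 204 peak-poor bins had under 30 H3K36me2 peaks per Mb, against 35 to 48 of the other 2717 bins. Their density on chromosome X was between 47.6 and 49.96 per Mb and on chromosome 13 between 125.4 and 136.3, beside 215.2 to 224.0 on chromosome 2 and 107.1 to 157.5 on chromosome 22. Chromosome 13 as a whole was thus not below chromosome 22 in every H3K36me2 list, unlike in the CTD lists. What sets these segments apart was not tested.

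Bin by bin, the lists of different conditions correlated about as closely as those of one condition. Log2 densities of the 2921 bins correlated between lists of different conditions with Pearson's r between 0.960 and 0.986 (9 pairs), and between lists of one condition with r between 0.959 and 0.984 (6 pairs). These values are across bins, which are not independent and share base composition. In limma, fitted over all bins, 0 bins were higher at 3 h and 0 were lower at an adjusted p under 0.05 (0.00% of those tested in either direction). Since the lists hold almost equal numbers of peaks, a change of binding spread evenly over the genome could not appear here. At an unadjusted p under 0.05 there were 10 higher and 9 lower bins, and limma without its trend also called 0, with 27 at that unadjusted p. These 19 and 27 were smaller shares of the 2921 bins than the 0.05 expected without any difference. The 0 calls therefore do not show that the conditions were alike. All 3 lists at 3 h were above all 3 without UV in 40 bins (1.37%) and below them in 39 (1.34%).

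None of the leading bins was called, and their values show the size of the differences. The bin of chromosome 1 between 233000001 and 234000000, with PCNX2 and the potassium channel gene KCNK1, held 105, 112 and 126 peaks without UV and 138, 168 and 151 at 3 h (log2 difference 0.41 ± 0.12, SE). The one between 48000001 and 49000000 on chromosome X, in a part of that chromosome with many peaks, held 134, 147 and 153 without UV and 167, 182 and 218 at 3 h (0.38 ± 0.12, SE). In these 2 bins the conditions did not overlap. The same was true between 24000001 and 25000000 on chromosome 13, with SPATA13 and PARP4, where 185, 177 and 168 peaks without UV stood beside 215, 193 and 234 at 3 h (0.27 ± 0.091, SE). In the opposite direction, the bin of chromosome 2 between 132000001 and 133000000, with NCKAP5, held 194, 180 and 189 peaks without UV and 165, 156 and 167 at 3 h, a log2 difference of −0.21 ± 0.069 (SE). The other 6 leading bins, 2 higher and 4 lower, lay in peak-poor stretches of chromosomes 9, 13 and X and held at most 16 peaks in any list. Every adjusted p of these 10 bins was 1 in limma.

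Across bins, the difference between the means of the conditions went with GC, as did that between replicates. Over 2762 bins the log2 difference of 3 h over no UV had a Pearson's r of 0.45 and a Spearman's rho of 0.51 with GC content, and 0.27 and 0.28 after division by the GC-expected number. These are descriptions across bins, which share the libraries of each list. The GC slopes of the lists overlapped between the conditions. At 3 h replicate 3 had 0.11, and replicates 1 and 2 had 0.065 each, below the no UV mean of 0.068. With the GC-standardised values limma again called 0 bins, with 61 at an unadjusted p under 0.05.

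Distance to genes was examined next, since the recognition of UV lesions is coupled to transcription in one branch of excision repair and independent of it in the other. Peaks were densest near gene starts and thinned with distance, in both conditions. Within 1 kb of protein-coding gene starts there were 286.1, 247.6 and 223.9 peaks per Mb without UV, against 229.2, 246.8 and 317.0 at 3 h. The means were 252.5 ± 31.4 before and 264.3 ± 46.5 after UV (SD over 3 lists, log2 ratio 0.066, exact permutation p = 0.7, adjusted p = 0.8). Replicate 3 at 3 h and replicate 1 without UV, the 2 lists steep in GC, were the highest. More than 500 kb from any start the density was 97.8, 109.7 and 125.5 without UV and 113.2, 107.3 and 92.6 at 3 h, with means of 111.0 ± 13.9 and 104.4 ± 10.6 (SD, n = 3 each, log2 ratio −0.089, exact permutation p = 0.5, adjusted p = 0.8). The same lists were now the lowest.

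Of the 9 distance classes, 1 separated the conditions. Between 50 and 100 kb from a start, all lists at 3 h (182.7, 184.2 and 183.6 per Mb) were above all lists without UV (182.1, 181.7 and 182.2), by 1.47 peaks per Mb on average (exact permutation p = 0.1, the smallest possible, adjusted p = 0.8). Relative to the GC-expected number this class overlapped, and so did the other 8 (smallest adjusted p = 0.6). On that scale the sequence more than 500 kb from a start held 0.84, 0.80 and 0.84 of the expected peaks without UV, against 0.80, 0.78 and 0.80 at 3 h. The stretches within 1 kb held 1.01, 1.08 and 1.08 without UV and 1.05, 1.16 and 1.07 at 3 h. On this scale the classes nearest to and farthest from starts were closer to each other than in density.

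Along 14855 protein-coding genes of 10 kb or more, the density was even through the body and stepped up at both ends. The body held 193.2, 192.9 and 188.5 peaks per Mb without UV and 191.0, 192.4 and 195.6 at 3 h (191.5 ± 2.64 and 193.0 ± 2.33, SD, n = 3 each, exact permutation p = 0.6). In the kilobase upstream of the start it was 269.0, 246.4 and 215.3 without UV and 233.4, 251.0 and 296.8 at 3 h (243.6 ± 26.9 and 260.4 ± 32.7, SD, n = 3 each, log2 ratio 0.096, exact permutation p = 0.5). The 10 kb downstream held 237.5, 217.2 and 195.1 without UV, against 212.9, 213.8 and 243.4 at 3 h. The spread between lists was thus small in gene bodies and large in the GC-rich flanks, and 39 of 40 sections overlapped. The exception was the sixth of 20 parts of the body, with 190.6, 190.1 and 186.4 without UV and 193.0, 191.4 and 191.0 at 3 h (log2 ratio 0.021, exact permutation p = 0.1, adjusted p = 1).

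Relative to GC, the rise upstream of the start was mostly gone. The kilobase before the start had 0.96, 1.07 and 1.05 of the expected peaks without UV and 1.06, 1.17 and 1.02 at 3 h, and the gene body 1.06, 1.08 and 1.07 without UV and 1.08, 1.08 and 1.07 at 3 h. Replicate 2 at 3 h was the highest list before the start. The conditions overlapped in both (exact permutation p = 0.5 and 0.6).

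At single genes, peaks inside each gene were counted for 6963 of 19969 protein-coding genes, those with a mean of at least 10 peaks. In limma, 0 genes were higher at 3 h and 0 lower at an adjusted p under 0.05 (0.00% in either direction), with 68 higher and 34 lower at an unadjusted p under 0.05. These 102 were a smaller share of the 6963 genes than the 0.05 expected without any difference, so the limits given for bins hold here too. Limma without trend called 0 as well, with 178 at that unadjusted p. The groups did not overlap, with higher counts at 3 h, in 209 genes (3.00%) and with lower counts in 140 (2.01%). The median log2 difference over the 6963 genes was 0.017. Overlapping genes share peaks, so they are not independent.

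The leading genes with more peaks at 3 h were MYOCD, EPG5, PLEKHG5, CNTRL, WDR20, MROH8, SSR1, DHX29, RGS3, SUGP2, NCKAP1L and SAMD5. MYOCD, a coactivator of muscle genes, had 10, 8 and 7 peaks without UV and 15, 23 and 15 at 3 h (log2 difference 0.99 ± 0.29, SE). EPG5, an autophagy gene, had 22, 21 and 26 without UV and 29, 41 and 41 at 3 h (0.65 ± 0.22, SE). DHX29, a helicase of translation initiation, went from 5, 8 and 10 to 13, 16 and 14 (0.86 ± 0.32, SE). In all leading genes of this direction but SUGP2, no list at 3 h was below one without UV. CNTRL, which codes for the centrosomal protein centriolin, was among them. These genes were picked for their lowest p, so this is not separate support for a difference. RGS3, a regulator of G-protein signalling, had the most peaks of the 12, with 34, 31 and 23 without UV and 42, 42 and 44 at 3 h (0.54 ± 0.20, SE).

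The leading genes with fewer peaks were CDIN1, PIGT, GCFC2, LIPH, DCUN1D4, PTPRD, UEVLD, CEP72, TFRC, LEF1, WASL and ZFP30. PIGT, a subunit of the enzyme that attaches GPI anchors, had 16, 13 and 15 peaks without UV and 8, 8 and 7 at 3 h (log2 difference −0.85 ± 0.30, SE). TFRC, the transferrin receptor gene, had 22, 24 and 22 without UV and 17, 12 and 15 at 3 h (−0.61 ± 0.24, SE). LEF1, a transcription factor of Wnt signalling, had 38, 35 and 31 without UV and 25, 19 and 27 at 3 h (−0.54 ± 0.22, SE). These groups did not overlap, but every adjusted p of the 24 leading genes was 1 in limma, and the log2 differences kept their sign after GC standardisation.

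Groups of genes were examined whose products or length bear on the repair of UV damage, and their members are described by counts beside those over all genes. Of 23 nucleotide excision repair genes, 10 had enough peaks to be tested, and 0 passed the adjusted p in either direction (0 also at an unadjusted p under 0.05), with 4 positive and 6 negative differences. Over all genes tested, 3723 differences were positive and 3240 negative. The median log2 difference of the repair genes was −0.052, beside 0.017 over all genes tested. ERCC1, a subunit of the nuclease that cuts 5′ of the lesion, had 32, 29 and 12 peaks without UV and 17, 21 and 24 at 3 h, and ERCC6, the CSB gene of transcription-coupled repair, had 20, 18 and 19 and then 25, 15 and 21. CUL4A, the cullin of the DDB1-DDB2 ligase, had 20, 20 and 16 without UV and 19, 15 and 17 at 3 h. RPA3, which codes for a subunit of the single-strand binding protein RPA, had 13, 18 and 21 without UV and 15, 18 and 15 at 3 h. In all 4 genes the conditions overlapped.

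Of 22 genes for partners of ASH1L and for enzymes of histone H3 methylation, 15 were tested, 0 passed, and 9 differences were positive and 6 negative (median 0.045). KDM4B, a histone demethylase gene, had 55, 51 and 51 peaks without UV and 47, 37 and 58 at 3 h. NSD1, which codes for another H3K36 methyltransferase, had 46, 56 and 38 without UV and 52, 40 and 50 at 3 h. KDM4C had 44, 47 and 57 without UV and 41, 52 and 47 at 3 h, and KDM2B had 61, 47 and 24 and then 39, 52 and 56. All 4 overlapped between the conditions, and so did MORF4L1, the MRG15 gene, with 29, 26 and 14 without UV and 25, 22 and 27 at 3 h. SUPT16H, the SPT16 gene of the histone chaperone FACT, was too short of peaks to be tested, with 3 in each list without UV and 5, 5 and 4 at 3 h, which did not overlap. Of the 15 tested genes of this group, 0 separated the conditions in either direction, beside 3.00% higher and 2.01% lower over all genes tested. SUPT16H was added after its values were seen, and nothing is read from so few peaks. The gene of the other FACT subunit, SSRP1, was not tested either, with 1, 2 and 1 without UV and 2, 2 and 3 at 3 h, an overlap.

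Of 18 p53 target genes, 4 were tested (ZMAT3, PPM1D, FAS and TNFRSF10B), 0 passed, and the median log2 difference was −0.057. ZMAT3, which codes for an RNA-binding protein, had 24, 27 and 21 peaks without UV and 26, 28 and 21 at 3 h. Most genes of this group held too few peaks to be tested, and CDKN1A, the p21 gene, held between 2 and 5 peaks in every list. MDM2, which codes for the ligase that degrades p53, was below the minimum for the test and had 5, 2 and 2 without UV and 13, 9 and 4 at 3 h, an overlap. Of 20 large genes at common fragile sites, which are long targets for UV lesions, 19 were tested, 0 passed, and 14 differences were negative and 5 positive (median −0.090, beside 0.017 and the 3240 negative and 3723 positive over all genes tested). RBFOX1 had the most peaks of all, 688, 586 and 579 without UV and 642, 615 and 628 at 3 h, and DLG2 had 359, 457 and 543 and then 448, 452 and 342. MACROD2, with 387, 397 and 441 without UV and 386, 433 and 362 at 3 h, and CTNNA3, with 265, 363 and 476 and then 422, 339 and 324, also overlapped. The group's median GC content was 36.8%, beside 42.1% over all genes tested, and with GC-standardised counts its median log2 difference was −0.083, beside 0.012 over all genes tested. PTPRD, a receptor phosphatase gene with 128, 149 and 182 peaks without UV and 128, 113 and 89 at 3 h, was the only member at an unadjusted p under 0.05 (log2 difference −0.47 ± 0.17, SE, limma adjusted p = 1).

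The width and height of CTD peaks overlapped between the conditions. The median width was 512, 472 and 422 bp without UV and 474, 457 and 496 bp at 3 h (exact permutation p = 0.9, adjusted p = 0.9). The median fold enrichment was 1.77, 1.72 and 1.82 without UV and 1.80, 1.81 and 1.77 at 3 h (exact permutation p = 0.7, adjusted p = 0.9). Peaks reaching a −log10 p-value of 2 numbered 41362, 29308 and 32853 without UV and 32365, 42056 and 40197 at 3 h, again an overlap (exact permutation p = 0.5).

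What separated the conditions was how often a peak recurred in another replicate. The share of peaks sharing 1 bp or more with another list of their condition was 49.5%, 48.8% and 44.99% without UV and 51.5%, 51.6% and 53.6% at 3 h, a difference of 4.49 percentage points (exact permutation p = 0.1, the smallest possible, adjusted p = 0.3). Peaks found in all 3 lists made up 10.6%, 9.79% and 9.72% without UV and 13.9%, 13.8% and 14.1% at 3 h. All lists at 3 h were higher in both. The values of a condition draw on each other, since a shared peak counts in each list, so these lists are not independent and the exact p is too small. The lists at 3 h also had one pooled control in common, which those without UV did not.

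The higher share at 3 h was seen across the genome. It separated the conditions on 20 of 23 chromosomes, in 8 of 9 distance classes and in 3 of 6 GC classes, always higher at 3 h (smallest adjusted exact permutation p of 0.115, 0.1125 and 0.2). These are slices of the same 6 lists, so they are not separate support for the difference. The limits above, on dependent values and the pooled control, hold in each slice, and these p-values are too small as well. The difference ranged from 3.29 to 7.04 percentage points over chromosomes. It was 7.23 points within 1 kb of a gene start, where 58.3%, 61.0% and 59.5% of peaks recurred without UV and 68.7%, 68.7% and 63.0% at 3 h. More than 500 kb from a start it was 2.70 points, with overlapping lists of 43.6%, 40.7% and 35.5% without UV and 40.3%, 41.7% and 45.8% at 3 h. Whether these differences differ from each other was not tested. On the peak-poor chromosome X the shares were lowest, 27.5%, 26.8% and 22.2% without UV and 30.2%, 30.5% and 32.5% at 3 h.

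Overlaps of pairs of lists did not separate the conditions. The share of one list's peaks that overlapped the other was between 31.6% and 33.9% within 3 h, between 26.1% and 32.4% within no UV, and between 26.3% and 37.1% across conditions, with medians of 33.8%, 28.4% and 28.8%. The highest overlap of all was between replicate 1 without UV and replicate 3 at 3 h, 36.7% and 37.1% of either list, the 2 lists that were alike in GC.

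Calls appeared when limma was restricted to recurring peaks, but this selection is made within each condition. A peak shared by lists of a condition counts in each of them, and a bin or gene gains peaks through the condition in which they recur, so the 3 values per condition are not independent, the limma p-values are too small, and the calls are given as a description. With these peaks, 226 bins were higher at 3 h (7.74%) and 24 lower (0.822%), and 634 genes were higher (9.11%) and 133 lower (1.91%), at an adjusted p under 0.05. The median log2 difference was 0.11 over all bins and 0.13 over all genes. After each list was centred on its own median, 116 bins were higher and 300 lower, and 572 genes were higher and 284 lower, so the direction of the calls over bins depended on this scaling. Bins without any difference before centring were among those called lower after it. The bin of chromosome X between 110000001 and 111000000 went from a log2 difference of 0 to −0.16 by the centring alone. When recurrence was counted against all 5 other lists, whatever their condition, 0 bins and 0 genes were called, with 67 bins and 188 genes at an unadjusted p under 0.05. Leaving out 1 list at a time, the calls with recurring peaks fell to between 4 and 116 bins higher and 2 and 8 lower, and to between 0 and 117 genes higher and 0 and 18 lower. With any single list at 3 h left out, 0 genes were called.

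Among the groups of genes, recurring peaks called 1 of the 10 tested repair genes, and 2 of the 19 tested genes at fragile sites. ERCC3, which codes for the XPB helicase of TFIIH, had 5, 4 and 6 recurring peaks without UV and 12, 8 and 10 at 3 h, out of 12, 7 and 6 and then 18, 9 and 12 peaks of any kind. LSAMP, a cell adhesion gene at a fragile site, had 84, 107 and 93 recurring peaks without UV and 143, 139 and 127 at 3 h, and PTPRD had 20, 23 and 22 and then 14, 11 and 11. No p is given for these counts, for the reason above, and with all peaks the limma adjusted p of each gene was 1. PTPRD was no longer called once any single list was left out, and neither were ERCC3 and LSAMP once any list at 3 h was. A single call among 10 or 19 genes stands beside the 9.11% higher and 1.91% lower over all genes tested, and nothing is read from it about either group.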

How the data were processed

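Broad peak lists from anti-Flag ChIP-seq were analysed, 3 replicates per condition, grouped by their labels. Per the methods, the authors trimmed reads (Trim Galore 0.6.5), mapped them with BWA 0.7.17-r1188 to hg38 lacking chromosome Y, filtered alignments by quality, duplication and a blacklist, and ran MACS2 2.2.7.1 (broad mode) replicate by replicate. Column values deposited by the authors are the fold enrichment, a ratio of ChIP to control, and the −log10 p-value of each peak. Each list holds 500000 peaks, so total peak numbers cannot differ, and the weakest −log10 p was between 1.22 and 1.35, under the stated cutoff of 2. No peak ended beyond its hg38 chromosome. The lists give no depth.

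Peaks were assigned by their centre to GENCODE release 44 features. Densities are per Mb of sequence without gaps. Bins (at least 0.5 Mb of sequence) and genes (mean of at least 10 peaks) were tested with limma 3.58.1 (R 4.3.3, with a mean-variance trend) on log2(peaks + 1), per Mb for bins, with Benjamini-Hochberg adjustment. All other comparisons used exact permutation (two-sided). The GC-expected number used each list's own rate per 1% of GC of 1-kb tiles. The limma step was also run on simulated counts. Their noise was drawn independently for each bin or gene, whereas the spread between the real lists followed GC. The simulation therefore does not give the error or power in these data. Named bins and genes were those with the lowest p in each direction (5 bins, 12 genes), chromosomes those with the 3 largest differences each way, and list members the 4 with most peaks. MORF4L1, SUPT16H, SSRP1, CDKN1A, MDM2, ERCC5, ERCC3, LSAMP, PTPRD as a list member and the genes of runs were added after their values were seen. The members and gene lists were chosen with earlier results of these data known. The peak-poor limit, GC standardisation, pairwise overlaps, recurrence by feature and across conditions, and median-centred recurring peaks were chosen after the values were seen. The first-ranked one-sided site in each direction is not reported here. Alternatives are given at the end. Tables were made in Python 3.11.15 (pandas 2.3.3, numpy 2.4.6) and sequence was read with samtools 1.23.1.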

Additional observations from a re-analysis of the deposited data

Results flagged for a closer look

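Peaks inside ASH1L, left out of every comparison, carried a signal above that of all other peaks. Their highest fold enrichment was 26.7, 5.87 and 41.2 in replicates 1, 2 and 3 without UV and 18.9, 18.1 and 18.8 in those at 3 h, beside at most 3.67 elsewhere. The vector carries part of the coding sequence of this gene. No binding of the CTD to its own gene can be told apart from it.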

How the results depend on the processing

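With all peaks, 0 bins and 0 genes were called by limma with another pseudocount, no low-value filter, no trend, median-centred lists, GC standardisation, bases covered, the 100000 strongest peaks, or, for bins, 500 kb and 2 Mb windows. Peaks with a −log10 p of at least 2 gave 1 bin higher, with 1 such peak in each list at 3 h and 0 in those without UV. Leaving out 1 list gave 0 bins higher, 0 to 2 lower (2 without 3 h replicate 1, each with at most 2 peaks per list) and 0 genes. Recurring peaks gave 226 bins higher and 24 lower, and 634 genes higher and 133 lower (median-centred 116, 300, 572 and 284, with bins of no difference before centring among the 300). The limma p-values behind these calls are too small, since recurrence is counted within a condition, and with recurrence in any other list 0 bins and 0 genes were called. Without no UV replicates 1, 2 and 3 in turn they gave 4, 4 and 8 bins higher and 6, 8 and 7 lower, and 92, 117 and 108 genes higher and 10, 11 and 18 lower. Without 3 h replicates 1, 2 and 3 they gave 116, 13 and 16 bins higher, 7, 2 and 2 lower, and 0 genes.

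Log2 differences that changed sign were those of the bin of chromosome 13 with GPC5 (0.53) and SAMD5 (−0.44) with the strongest peaks, SAMD5 with centred recurring peaks (−0.080) and with recurring peaks without no UV replicate 3 (−0.12), 3 h replicate 2 (−0.12) or 3 h replicate 3 (−0.0068), and GCFC2 (0.33), DCUN1D4 (0.67) and CEP72 (0.53) with peaks of −log10 p of at least 2. With those last peaks the sign also turned over 500 kb from a start (0.11), under 35% GC (0.15), over 55% GC (0.017) and on chromosomes 4 (0.19), 8 (0.065) and 5 (0.089), and the median width differed by −13.8 bp. With recurring peaks it turned over 500 kb (0.011), over 55% GC (0.068) and on chromosomes 4 (0.099), 8 (0.059) and 5 (0.0995). With the strongest peaks it turned under 1 kb (−0.0092) and on chromosome 4 (0.0050), and with bases covered over 55% GC (0.021). Conditions separated on 17 chromosomes with recurring peaks and 2 with bases covered. The cause of these changes was not tested.

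Leaving out 1 list at a time, log2 differences ranged from −0.086 to 0.17 under 1 kb, −0.17 to 0.0083 over 500 kb, −0.49 to 0.086 under 35% GC, −0.26 to 0.19 over 55% GC, −0.0081 to 0.17 in the kilobase upstream and −0.00010 to 0.019 in the body. They ranged from −0.0016 to 0.11 on chromosome 13, −0.0053 to 0.15 on 16, −0.0088 to 0.17 on 19, −0.13 to 0.070 on 4, −0.056 to −0.0062 on 5 and −0.065 to 0.023 on 8. The median fold enrichment differed by −0.0072 to 0.043, the width by −16.3 to 28.7 bp and the recurring share by 3.09 to 5.35 points. No named bin or gene changed sign in these fits with all peaks.

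Whether replicate numbers pair the lists is not settled by these values. Same-numbered deviations over bins correlated with −0.29, 0.15 and −0.41, and with −0.048, 0.18 and −0.031 after GC standardisation. The highest pair was replicate 1 without UV with replicate 3 at 3 h (0.46), the lists alike in GC. After GC standardisation it was replicate 2 of both conditions (0.18). With the replicate block limma called 0 bins and 0 genes (15 and 47 at an unadjusted p under 0.05), also with GC standardisation (68 and 332). With the block the log2 difference was 0.059 under 1 kb, −0.087 over 500 kb, −0.17 under 35% GC, −0.013 over 55% GC, 0.095 in the kilobase upstream and 0.011 in the body, and the recurring share differed by 4.49 points (exact permutation p = 0.25, the smallest possible for 3 pairs). The lists give no depth, so counting error is unknown.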
